A study of Drosophila melanogaster with 4 samples.

Results

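Genes of blastoderm cellularisation were followed in whole Drosophila melanogaster embryos that lack dSAP18, a small nuclear protein known from the Sin3 histone deacetylase and ASAP splicing-linked complexes (fly gene symbol Bin1). The genes were the 7 named nullo, halo, Sry-alpha, slam, bnk, Bsg25A and Bsg25D, and each array spot annotated with one of these symbols, or with the current symbol of the same gene, was taken if it had a value on at least 1 array of each biological replicate. This left 5 genes, with 1 spot each, of 5752 genes measured under the same rule on arrays of 16416 spots. Bsg25D now carries the symbol Nin and Bsg25A the symbol Elba1. bnk had 1 spot, without a value on any array, Bsg25A had no spot in the annotation used, and a second Bsg25D spot had no value. Both genes without values are not analysed further.

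The mutant embryos were w1118; dsap18117/Df(3R)sbd45, that is, a null dsap18 allele made by mobilizing a P element, over a deficiency that uncovers the gene. The control embryos carried the same allele over the same deficiency plus a dsap18-HA rescue transgene. Whatever else the deficiency removes was thus missing from that chromosome in both. All embryos were collected over 0 to 24 h and used whole, and 2 pairs of mutant and control RNA, from different extractions, were each measured on 2 two-colour arrays with the dyes swapped. The labels place the transgene on chromosome 2 in 1 control channel of replicate 1 and on X in the control channels of the other 3 arrays. No spot was named for Bin1, so the loss of the targeted transcript could not be checked.

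In the fly embryo, nuclei divide in a shared cytoplasm before membrane furrows grow inward between them and turn the syncytium into a sheet of cells, the cellular blastoderm. Much of the machinery is supplied by the mother, while a small set of genes is switched on in the zygote in a brief burst just before the furrows form. nullo, Sry-alpha and bnk act on the actin and myosin network at the furrow tips, slam is needed for the furrows to grow, and halo controls the transport of lipid droplets along microtubules at this stage. Bsg25A encodes a subunit of the Elba complex, which binds insulator DNA in the early embryo, and Bsg25D encodes the fly relative of the centrosomal protein ninein.

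Every value below is a log2 ratio of the 2 channels of an array as the authors computed it, and a difference between ratios is stated as such. The direction of the ratio is not stated, and mutant over control is the likely one because the design text names the mutant as the sample. If it runs the other way, all signs turn and all sizes stay. All pairs of arrays correlated positively across the genes with values on all 4 arrays (lowest r = 0.67), the swapped arrays of one RNA pair with r = 0.92 in replicate 2 and 0.84 in replicate 1, and the ratios were taken as already turned one way. The arrays had values for 39.8% to 48.6% of their spots, and ratios over all genes were wider in replicate 2 (SD 0.48) than in replicate 1 (SD 0.28), by 1.75 times. In RNA from whole embryos of mixed age, fewer embryos at the blastoderm stage and less of a transcript per embryo cannot be told apart.

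The 5 measured genes did not behave as a block. Bsg25D had a positive ratio in both replicates and was the 1 gene of the 5 to pass the test, nullo and slam lay near 0 in both, and halo and Sry-alpha had ratios of opposite sign in the 2 replicates. By limma's test of the 2 replicate means against 0 (Benjamini-Hochberg over 5752 genes, adjusted p under 0.05), 1 of 5 passed with a positive and 0 with a negative ratio, and 1 of 5 had an unadjusted p under 0.05. Over all genes 23.1% passed, 11.3% with a positive and 11.8% with a negative ratio, so the share among these genes was close to the background. Their median mean ratio was 0.17, against 0.02 over all genes. The median was 0.41 in replicate 2 alone and 0.01 in replicate 1 alone, and it was 0.04 with the replicates scaled to one SD. On the arrays with the mutant in Cy5 it was 0.20. With the mutant in Cy3 it was 0.08, without Bsg25D, which could not be fitted there. From spots with values on all 4 arrays, also without Bsg25D, it was 0.11.

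halo had log2 ratios of 0.82 and 0.80 on the arrays of replicate 2, against -0.54 and -0.34 on those of replicate 1. Both arrays of a replicate agreed in sign whichever dye the mutant RNA carried, and the replicates did not overlap. Swapped arrays lay 0.02 apart in replicate 2 and 0.20 apart in replicate 1. The replicate means of 0.81 and -0.44 lay 1.24 apart. The mean over the replicates was 0.19 ± 0.88 (SD, n = 2; 95% interval -0.16 to 0.53 with the variance pooled over genes; limma adjusted p = 0.463). Both replicate means of halo lay outside this interval, which therefore does not show its own spread. A mean near 0 here stands for a pair of opposite values and not for a small change in either RNA pair.

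Sry-alpha showed the same arrangement, with log2 ratios of 0.47 and 0.42 in replicate 2, against -0.45 and -0.56 in replicate 1. The replicate means were 0.45 and -0.50, and the mean of the 2 was -0.03 ± 0.67 (SD, n = 2; limma adjusted p = 0.924). Again the dye-swapped arrays of each RNA pair lay close together, 0.05 apart in replicate 2 and 0.10 apart in replicate 1. Sry-alpha (arm 3R) overlaps the zinc finger gene Sry-beta in the RefSeq gene table, where Sry-delta, another zinc finger gene, is the next gene. Their spots differed from that of Sry-alpha: Sry-beta averaged 0.66 in replicate 2 and 0.29 in replicate 1 (mean 0.47, limma adjusted p = 0.0228), and Sry-delta averaged 0.22 and 0.16 (mean 0.19, limma adjusted p = 0.417). Signal from overlapping transcripts at one spot cannot be told apart, and the part of this overlap in the values was not tested.

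nullo had log2 ratios of 0.24 and 0.19 in replicate 2 and of 0.04 and 0.21 in replicate 1. All 4 arrays were on the positive side, and the replicates overlapped. The mean was 0.17 ± 0.06 (SD, n = 2; 95% interval -0.14 to 0.48; limma adjusted p = 0.463), so neither no change nor a ratio of up to 0.48 lay outside the interval. nullo (arm X) overlaps CG12541, which was not among the genes measured. CG14427, the next gene on one side of nullo, had a mean ratio of 0.04 (limma adjusted p = 0.874).

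slam was the flattest of the set. Its log2 ratios were 0.06 and 0.11 in replicate 2 and -0.09 and 0.11 in replicate 1, so the arrays of replicate 1 disagreed in sign and the replicates overlapped. The mean was 0.05 ± 0.05 (SD, n = 2; 95% interval -0.27 to 0.36; limma adjusted p = 0.866).

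Bsg25D had a log2 ratio of 0.41 on the single array of replicate 2 with a value, against 0.58 and 0.50 on the 2 arrays of replicate 1. All 3 values were positive. The mean was 0.47 ± 0.09 (SD, n = 2), a 1.39-fold difference (95% interval of the log2 ratio 0.16 to 0.79; limma adjusted p = 0.0215). In replicate 2 the ratio comes from the array with the mutant in Cy5 alone, so a dye effect does not cancel there. From the 2 arrays with the mutant in Cy5, 1 per replicate, the ratio was 0.45 (limma adjusted p = 0.0246). The call was lost when each gene was tested with its own variance only (adjusted p = 0.557) and with a variance trend and robust moderation (adjusted p = 0.165), both from limma fits. Under either of these settings 0 of 5752 genes passed, so the loss was not particular to Bsg25D.

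**Figure D1:**
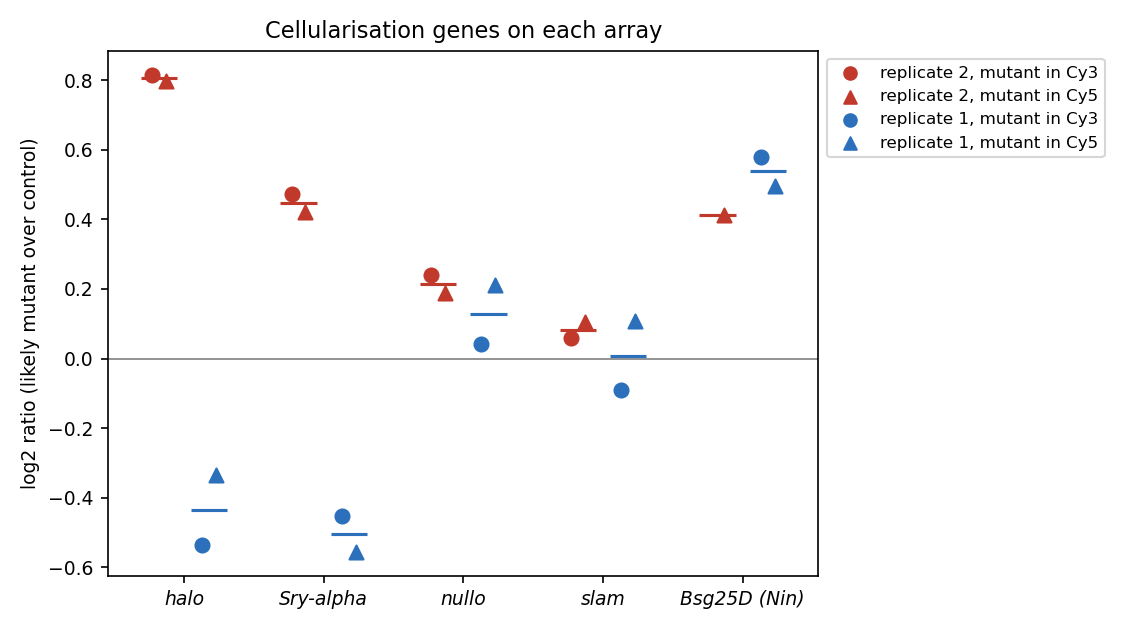
Log2 ratio of each measured cellularisation gene on each array (vertical axis, likely mutant over control), with replicate 2 in red left of replicate 1 in blue, circles for arrays with the mutant in Cy3, triangles for Cy5, and bars for replicate means. halo and Sry-alpha are above 0 on both arrays of replicate 2 and below 0 on both arrays of replicate 1, while Bsg25D (Nin) is positive on its 3 arrays.

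The sign in replicate 1 was then set beside the sign in replicate 2. The replicate means agreed in sign for nullo, slam and Bsg25D, 3 of the 5 genes, and were opposite for halo and Sry-alpha, 2 of the 5. Over all genes 21.6% had replicate means of opposite sign, many of them with ratios near 0. A stricter count asks that both swapped arrays agree within each replicate and that the replicates be opposite. Of the 4 cellularisation genes with values on all 4 arrays, halo and Sry-alpha met it, against 427 of 4312 genes (9.9%). With both replicate means also beyond 0.4 in size, a limit chosen after the values of these genes were seen, 5 of 4312 genes (0.116%) remained, and halo and Sry-alpha were 2 of them.

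The difference between replicates was tested on the single arrays with limma, as replicate 2 minus replicate 1, for genes with values on all 4 arrays. The spread in this test is that between dye-swapped arrays, taken to hold the same amplified RNA. By the labels, the control channels of replicate 1 differ in the place of the transgene. The test therefore compares these 2 RNA pairs and says nothing on the conditions. halo differed by 1.24 on the log2 scale (SE 0.11, limma adjusted p = 0.0015), which is 2.37-fold and ranked 2 among 4312 genes in that direction. By size in either direction halo ranked 10. Sry-alpha differed by 0.95 (SE 0.10, limma adjusted p = 0.0023), which is 1.93-fold and ranked 11, or 49 by size in either direction. nullo (0.09, limma adjusted p = 0.56) and slam (0.07, limma adjusted p = 0.633) did not pass. Thus 2 of 4 genes passed, both with the higher ratio in replicate 2, against 27.7% of all genes in either direction and 13.7% in that one. The median size of the difference over all genes was 0.22. The 2 RNA pairs differ in extraction, and for 1 channel in the labelled place of the transgene, and the part of either in these values was not tested.

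**Figure D2:**
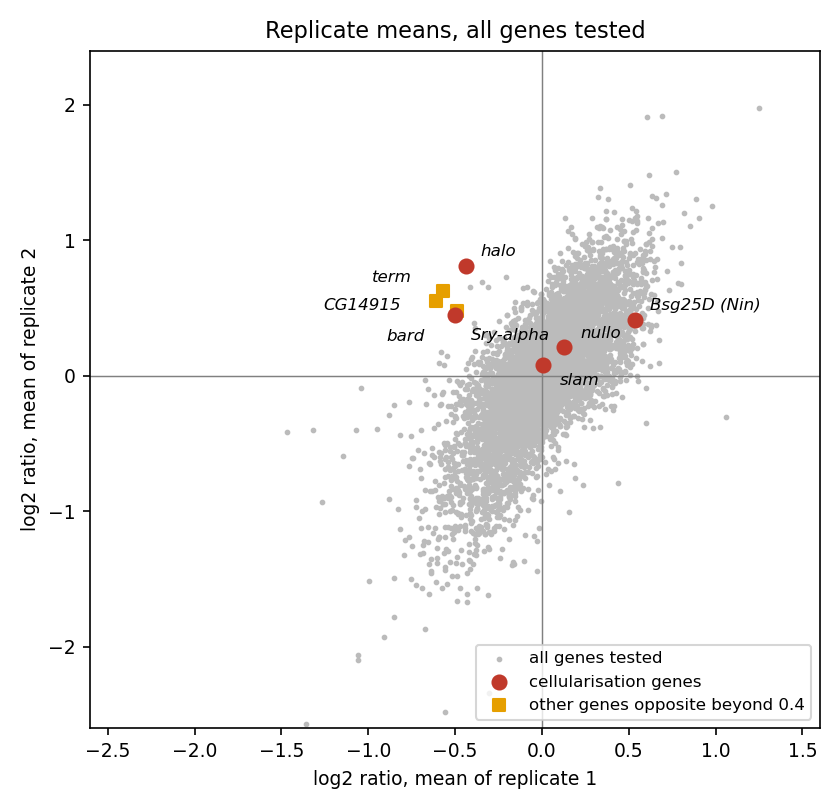
Mean log2 ratio of replicate 1 (horizontal) against replicate 2 (vertical) for the genes tested (grey), with 4 genes outside the axes, the cellularisation genes in red and in orange the other 3 genes with opposite replicates beyond 0.4. The cloud runs from lower left to upper right (r = 0.74 across genes), while halo at -0.44 and 0.81 and Sry-alpha at -0.50 and 0.45 stand in the upper left with term, bard and CG14915.

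**Figure D3:**
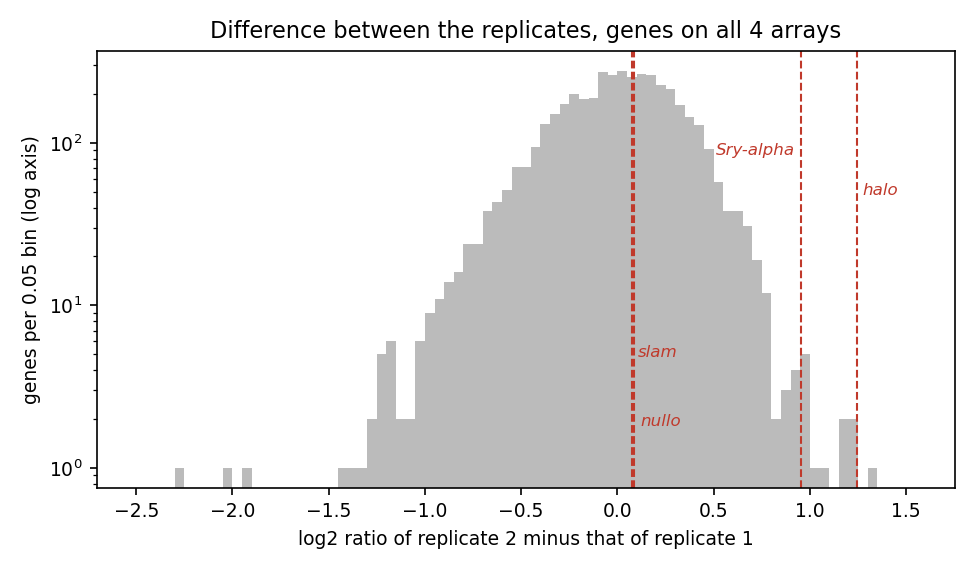
Number of genes (log axis) by the difference of log2 ratio, replicate 2 minus replicate 1, in bins of 0.05 for the 4312 genes on all 4 arrays. nullo (0.09) and slam (0.07) lie in the middle, and Sry-alpha (0.95) and halo (1.24) in the right tail.

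The genes closest to the median profile of the 4 cellularisation genes over the 4 arrays, by Euclidean distance of the log2 ratios, were CG12825 (distance 0.08), CG6000 (0.11), Rrp40 (0.12), ATPsyndelta (0.13), CG7488 (0.13) and CG9257 (0.14). This profile was negative on both arrays of replicate 1 and positive on both of replicate 2, since it mixes 2 genes near 0 with halo and Sry-alpha. Measured against halo and Sry-alpha singly, a comparison added after their values were seen, the neighbours were other genes. term, a zinc finger gene known from the blastoderm embryo, was at distance 0.38 from halo and 0.29 from Sry-alpha. CG8960 was the nearest to halo (0.29) and bard the nearest to Sry-alpha (0.12). Sry-alpha was itself 4th nearest to halo, at distance 0.56.

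The 3 further genes with opposite replicates beyond 0.4 were term, bard and CG14915, and in each the sign ran as in halo. term had log2 ratios of 0.72 and 0.53 in replicate 2, against -0.55 and -0.58 in replicate 1. bard had 0.57 and 0.38, against -0.40 and -0.57. CG14915 had 0.61 and 0.49, against -0.46 and -0.76. All 5 genes, with halo and Sry-alpha, were therefore higher in replicate 2 on every array, and no gene passed these limits with the opposite order. The limit of 0.4 was set with the values of halo and Sry-alpha known, so their place among the 5 was fixed by that choice. Without the limit, replicate 1 was negative in 223 of 427 such genes.

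The level of Bsg25A was not measured, and the ratios of genes for its partners and a relative do not stand in for it. Elba2, the gene for a partner subunit of Bsg25A, had log2 ratios of 1.40 and 1.03 in replicate 2, against 0.37 on the single array of replicate 1 with a value (mean 0.79, limma adjusted p = 2.54e-04). Elba3, the gene next to Bsg25A in the gene table, encodes the subunit that joins the other two, and had 0.73 on 1 array of replicate 2, against -0.31 and -0.11 in replicate 1 (mean 0.26, limma adjusted p = 0.257). Its replicate means were thus opposite in sign, as for 21.6% of all genes. With values on 3 arrays it could not enter the stricter count that halo and Sry-alpha met. insv, which encodes an insulator protein related to Bsg25A, had 1.06 and 0.66 in replicate 2, against 0.44 and 0.37 in replicate 1 (mean 0.63, limma adjusted p = 0.0022). Elba2 and insv were positive on every array with a value.

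These 3 genes, with the Sry-beta, Sry-delta and CG14427 genes above, belong to a list of other genes active around the onset of zygotic transcription, of which 11 of 18 were measured. With a positive ratio 3 passed (Elba2, insv and Sry-beta), with a negative ratio 3 passed, and 5 did not pass, beside 11.3% and 11.8% of all genes in those directions. The negative ones were Ance, a peptidase gene (mean -0.87, limma adjusted p = 3.84e-05), sna, which encodes the mesoderm repressor Snail (-0.50, limma adjusted p = 0.0164), and trbl, an inhibitor of the mitotic phosphatase String (-0.43, limma adjusted p = 0.0386). kuk, a nuclear envelope gene needed for nuclei to elongate during cellularisation, was at 0.39 (limma adjusted p = 0.0673), and the mesoderm gene twi, with 1 array per replicate, was at -0.19. The median of the list was 0.19 (0.22 in replicate 2 and -0.04 in replicate 1).

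For the machinery of the furrow, largely laid down by the mother, 30 of 49 listed genes were measured. With a positive ratio 2 passed, with a negative ratio 3, and 25 did not pass (median 0.10), beside 11.3% and 11.8% of all genes in those directions. dah, which encodes a furrow membrane protein, was at 0.79 ± 0.23 (SD, n = 2; limma adjusted p = 1.36e-04), and the cofilin gene tsr, which severs actin filaments, at 0.51 (limma adjusted p = 0.0137). On the negative side were Amph, the amphiphysin gene (-0.75), the adaptor gene cindr (-0.56) and nuf, which works with Rab11 in delivering membrane to the furrow (-0.42, limma adjusted p = 0.0455), named after its value was seen.

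Among 9 measured genes of 10 listed for lipid droplet transport and storage, the process that halo controls, 1 passed, with a negative ratio, and 8 did not (median -0.13), a share close to the 11.8% of all genes. It was klar, a gene that regulates the motors of the droplets, at -0.80 in replicate 2 and -0.26 in replicate 1 (mean -0.53, limma adjusted p = 0.0112). The perilipin gene Lsd-2 was at 0.40 (limma adjusted p = 0.055), and Lsd-1 at -0.34 (limma adjusted p = 0.109). These last 2 were named after their values were seen. klar kept 1 sign in both replicates, where halo did not.

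Segmentation and dorsal-ventral patterning genes of the blastoderm were also listed. Many of them are expressed at later stages too, so in RNA from 0 to 24 h their ratios do not report the blastoderm alone. Of 40 listed genes 17 were measured, 2 passed with a negative ratio, none with a positive ratio, and the other 15 missed the threshold (median -0.17), beside 11.8% of all genes on the negative and 11.3% on the positive side. The 2 were sna and opa, a pair-rule gene (-0.43, limma adjusted p = 0.0404), and the replicates had opposite signs for 2 of the 17, beside 21.6% of all genes. Of 21 genes that regulate the onset of zygotic transcription and the slowing of the nuclear cycles, 13 were measured, 6 passed with a positive ratio, 0 with a negative one and 7 did not pass (median 0.38), beside the same shares of all genes. They included the corepressor gene gro (0.77), the phosphatase gene twe (0.74), bcd (0.56) and the checkpoint kinase gene grp (0.55).

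A list of genes drawn up as maternal and another of late cuticle and muscle genes were added to describe the ages these RNAs hold. Both were chosen with earlier results of these data known, so their counts are descriptive and no test of age. Of 19 measured genes listed as maternal (24 listed), 17 had a positive mean ratio, 6 passed with a positive and 1 with a negative ratio. Over all genes 11.3% and 11.8% passed in those directions, and the median mean ratio was 0.02. Not every listed gene is known only from the supply of the egg. Exceptions are pip, the 1 negative gene, and fog, 1 of the 6 positive ones, both named after their values were seen. The median mean ratio of this list was 0.34 for replicate 2 and 0.11 for replicate 1. The largest were plu (0.89), swa (0.73), cta (0.69) and bcd. All 22 measured genes of late cuticle and muscle (30 listed) had a negative mean ratio, and 18 passed, beside 11.8% of all genes. Their median stood at -0.91 for replicate 2 and -0.35 for replicate 1. The lowest were Tb (-1.04), TwdlF (-0.90), TwdlW (-0.84) and TwdlG (-0.82). How far the mix of ages enters the ratios of the cellularisation genes was not tested.

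**Figure D4:**
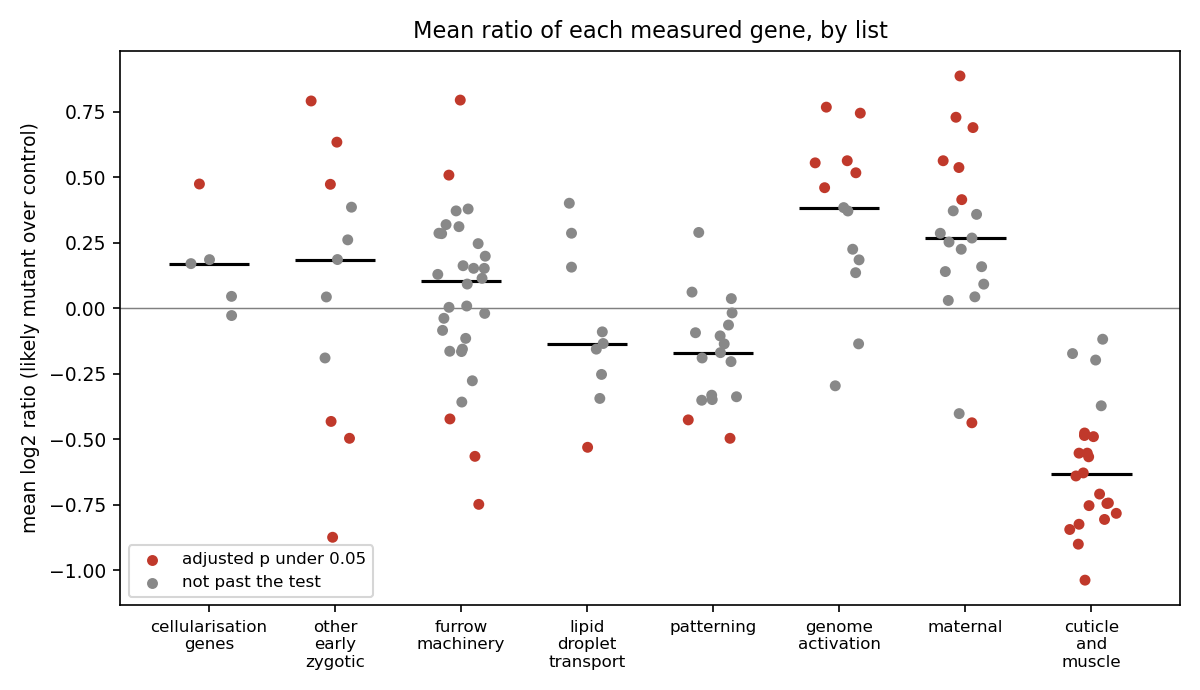
Mean log2 ratio over the 2 replicates (vertical axis, likely mutant over control) of each measured gene, by list, with genes past the limma test in red, others in grey and a bar at each median. The cellularisation genes lie between -0.03 and 0.47, and the late cuticle and muscle genes are all below 0. The lists were chosen with earlier results of these data known. Their labels are those under which they were drawn up, and not every gene is limited to the stage named.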

How the data were processed

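The deposited table holds, per the submitters' processing notes, output of limma (no version given): the authors' log ratio of the 2 channels per spot and array, taken here as log2. How background was corrected, how arrays were normalized and why spots are empty is not given in the sources used here, and signal over background is unknown, so the number of arrays limits the precision. Of 16416 spots, 13163 had 1 gene symbol. Current symbols came from RefSeq's Release 6 gene table (12532 spots by gene ID, 120 by accession, 511 unmatched). That table served for names, arms and neighbours only.

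Spots with a value on at least 1 array of each replicate were kept, the arrays of a replicate averaged, then the spots of a gene (5752 genes). The 2 means were tested against 0 across all genes with limma 3.58.1 in R 4.3.3 (lmFit, eBayes, 1 residual and 81.6 prior degrees of freedom). All adjusted p-values are limma's. With 81.6 prior against 1 residual degree of freedom, those of the mean ratios rest mostly on the variance pooled over genes. The spread between a gene's own 2 RNA pairs adds little to them. Those of the replicate difference rest on the spread between dye-swapped arrays. Scripts were tested on simulated data. The members and the 7 gene lists were chosen with earlier results of these data known, and no set test was made. Named genes are the members and the measured genes of the list around the onset of zygotic transcription. Also named are up to 4 genes per other list with the largest ratio past the test, and the 6 nearest profiles. Among the listed symbols 3 were not matched. Alternatives covered the spot filter, single spots, scaling, dye orientation, technical repeats, centring, variance model and left-out replicates.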

Additional observations from a re-analysis of the deposited data

How the results depend on the processing

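The count of cellularisation genes past the test was 1 under 6 of the 10 alternatives with a test. It was 0 on spots with values on all 4 arrays and with the mutant in Cy3 alone, where Bsg25D could not be fitted for want of an array, and 0 without moderation and with a variance trend and robust moderation. Without moderation 0 of 5752 genes passed limma's linear fit (461 at an unadjusted p under 0.05), and 0 with trend and robust (1648), the cause of which was not tested. Without moderation each test had 1 residual degree of freedom. The trend was fitted on the mean log ratio itself, the value under test, because no intensities were given. The genes past the test in the 5 early lists numbered 19, against 32 with the replicates scaled to one SD, 35 with arrays taken as independent, and 0 in each of the last 2 variance settings. Over all genes 1327 passed, against 1997 with scaled replicates and 2460 with independent arrays. The replicate difference of halo and Sry-alpha passed under all 3 alternatives tried for it. With replicate 2 scaled to the SD of replicate 1, the difference fell to 0.88 for halo and 0.75 for Sry-alpha. Leaving out a replicate gave values without a test: halo was 0.81 without replicate 1 and -0.44 without replicate 2, and Sry-alpha 0.45 and -0.50. Mutant and control RNA are already paired in each ratio, and no further pairing was possible because there is 1 group of ratios. With 2 RNA pairs, 1 residual degree of freedom and no intensities, small ratios such as those of nullo and slam could not be told from 0.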

Other observations

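The 427 genes whose replicates were opposite with both arrays of each agreeing were split nearly evenly, with replicate 1 negative in 223. The 5 beyond 0.4 in both replicates, halo, Sry-alpha, term, bard and CG14915, all had replicate 1 negative, under a limit chosen after the values of halo and Sry-alpha were seen. CG8960, the gene nearest to halo in profile, had 0.65 in replicate 2 and -0.31 in replicate 1, where it fell short of that limit. CG3348 lay just short of the limit in both, with 0.39 and -0.39. These genes were named after their values were seen, and no explanation of the shared order was tested.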
